A study of Mus musculus with 4 samples.

Results

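The genes described here are 32 enzymes and regulators of cholesterol and fatty acid synthesis. They were chosen as a list of symbols, and all 32 were found among the 26033 genes of the count matrices. They comprise 8 genes of the mevalonate arm, 11 of the sterol arm, 4 that control the pathway or carry sterol, 3 that build fatty acids and 6 that desaturate or elongate them. Their levels were read in leukocytes of the salivary gland, taken from C56BL/6 mice at 20 days of age and selected for surface CD45 with beads and then by flow sorting. Mice with 1 functional allele of Csf2 (Csf2+/-), the gene of the myeloid growth factor GM-CSF, served as the controls for mice without any (Csf2-/-). Each genotype had 1 female and 1 male library, each pooled from 2 mice, and RNA of single cells was counted with a 3′ droplet kit. The controls therefore carry a Csf2 mutation themselves, no wild-type library was used, and the salivary gland type is not given.

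Cholesterol is built from acetyl-CoA in the cytosol and endoplasmic reticulum. The mevalonate arm turns acetyl-CoA into isoprenoid units, which are joined to farnesyl diphosphate and also feed protein prenylation, and the sterol arm turns squalene into lanosterol and then cholesterol. The transcription factor SREBP2, from Srebf2, switches on most of these genes when sterol in the membrane is low, and SREBP1, from Srebf1, acts more on fatty acid genes. INSIG1 holds the precursors back when sterol is plentiful. Macrophages take up much sterol with the cells they engulf, and pass the surplus on through efflux genes driven by the LXR receptors.

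The libraries held between 111981802 and 122366588 unique molecular counts (UMIs), and 34805 cells were used after filtering, between 8137 and 8991 per library. Cells were named by marker genes into classes that are called X-like. Tests were run in the 11 classes whose libraries each held 50 cells or more. Csf2 in ILC2-like cells, its main source here, stood at 125 and 139 CPM (counts scaled to a common total per library and class) in the Csf2+/- libraries and 6.72 and 5.78 CPM in the Csf2-/- libraries. Which part of the gene is deleted is not stated, so 3′ counts check the labels only in part. Between 20 and 38 cell barcodes were shared by any pair of libraries. The epithelial-like class had 20.1 to 29.2 CPM of Ptprc, the CD45 gene, against at least 305 CPM in every library of the other tested classes. The alpha-beta T-like class was also led by the antibody genes Igha, Jchain and Igkc. In this class 6 plasma cell marker genes, Jchain among them, summed to 42.5 to 47.2 CPM in Csf2+/- and 868 to 1307 CPM in Csf2-/- libraries. Their part in the genotype values of the class was not tested. All levels below are CPM from UMIs summed in this way. Values for 4 libraries are given in the order Csf2+/- female, Csf2+/- male, Csf2-/- female, Csf2-/- male.

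SREBP2 binds promoters at a sterol regulatory element, typically next to a CCAAT box, which is bound by NF-Y. The 250 bases before the transcription start are shown for the 5 genes of the mevalonate and sterol arms that stood highest in migratory DC-like cells relative to the other classes and had a promoter on hand. They come from RefSeq on build GRCm38.p6, whereas the counts were made against GRCm39. Each is printed 5′ to 3′ on the gene's strand, with CCAAT boxes on either strand (CCAAT or ATTGG) and any match to TCACNCCAC, a form of the sterol regulatory element, in capitals.
Idi1: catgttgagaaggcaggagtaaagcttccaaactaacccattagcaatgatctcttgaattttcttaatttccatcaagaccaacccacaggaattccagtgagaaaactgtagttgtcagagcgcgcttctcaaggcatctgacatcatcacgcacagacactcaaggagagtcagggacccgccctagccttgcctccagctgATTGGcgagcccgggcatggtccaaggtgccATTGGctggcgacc
Mvd: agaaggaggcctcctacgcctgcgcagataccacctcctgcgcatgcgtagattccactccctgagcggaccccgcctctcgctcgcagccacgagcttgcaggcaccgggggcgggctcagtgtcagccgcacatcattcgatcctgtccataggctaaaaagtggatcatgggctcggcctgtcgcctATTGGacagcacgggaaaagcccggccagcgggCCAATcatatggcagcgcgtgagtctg
Pmvk: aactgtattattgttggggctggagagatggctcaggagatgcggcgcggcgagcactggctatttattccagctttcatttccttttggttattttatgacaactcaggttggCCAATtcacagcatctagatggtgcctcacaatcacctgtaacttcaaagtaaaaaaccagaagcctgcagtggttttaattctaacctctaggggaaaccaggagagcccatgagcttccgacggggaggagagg
Hmgcs1: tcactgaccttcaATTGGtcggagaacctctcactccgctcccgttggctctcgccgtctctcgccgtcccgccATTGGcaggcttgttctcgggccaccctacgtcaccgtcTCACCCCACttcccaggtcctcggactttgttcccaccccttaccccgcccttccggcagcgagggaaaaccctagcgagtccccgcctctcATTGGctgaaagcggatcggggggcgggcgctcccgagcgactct
Cyp51: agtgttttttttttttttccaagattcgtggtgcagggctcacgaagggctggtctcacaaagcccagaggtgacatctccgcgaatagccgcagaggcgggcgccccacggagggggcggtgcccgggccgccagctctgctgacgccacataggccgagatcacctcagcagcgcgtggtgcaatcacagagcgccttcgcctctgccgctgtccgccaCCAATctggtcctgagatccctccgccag
The stretches lie at chr13:8885356-8885605 on the plus strand for Idi1, chr8:122443423-122443672 on the minus strand for Mvd, chr3:89454291-89454540 on the plus strand for Pmvk, chr13:119690101-119690350 on the plus strand for Hmgcs1 and chr5:4104698-4104947 on the minus strand for Cyp51. Pmvk had 2 promoter entries, of which the first is shown. All 5 printed stretches hold at least 1 CCAAT box, Hmgcs1 holds 3, and Hmgcs1 alone holds the TCACNCCAC letters, whose first base lies 137 bases before the start. RefSeq promoters of 300 bases, reaching 50 bases past the start, were on hand for 25 of the 32 genes in 30 entries. A CCAAT box on either strand was in 22 of these 30 entries, or 73.3%, against 37.4% of all 32851 promoters. GGGCGG, the core letters of an SP1 site, was in 21 of them (70.00% against 35.7%), CACGTG, an E-box, in 5 (16.7% against 7.15%) and TCACNCCAC in 1 (3.33% against 1.24%), searched on both strands with overlaps allowed. These are matches of letters in a fixed window.

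Genes of the mevalonate and sterol arms had their highest summed level among the tested classes in migratory DC-like cells, dendritic cells that have matured and are bound for the lymph node. There the 19 genes of both arms summed to 908, 1054, 1129 and 1193 CPM in the 4 libraries (mean 1071 ± 123, SD, n = 4). The next classes were cDC1-like cells at 631 ± 105 CPM and cDC2-like cells at 596 ± 51.7 CPM, the other kinds of dendritic cell. Every migratory DC-like library, of 78 to 133 cells, lay above every library of these classes. All 10 migratory DC marker genes had UMIs in the class and summed to 11289 to 11608 CPM in Csf2+/- and 9030.1 to 9796 CPM in Csf2-/- libraries. cDC1-like and cDC2-like cells overlapped, and both lay above the other 8 tested classes.

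**Figure D1:**
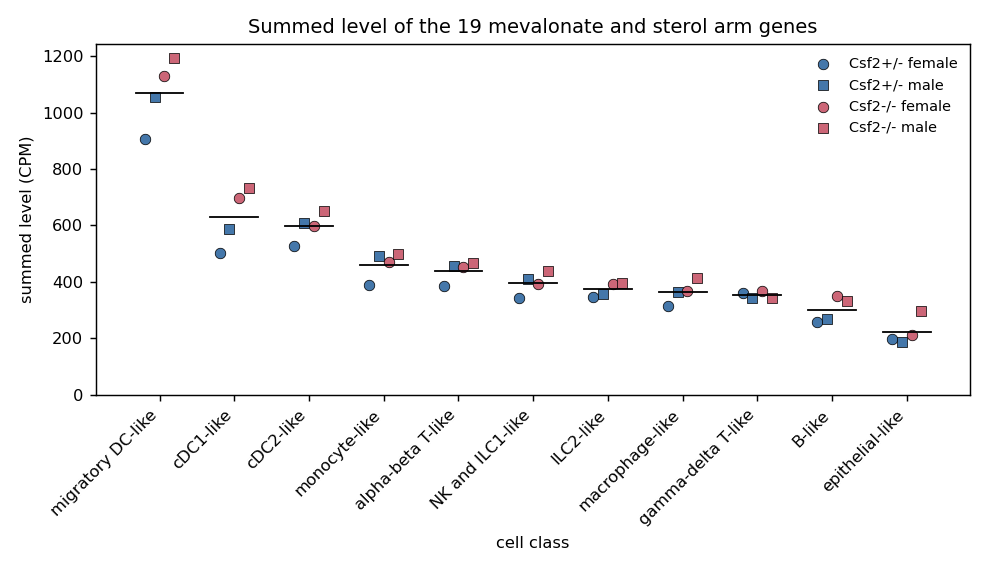
The summed level in CPM of the 19 mevalonate and sterol arm genes (vertical axis) is plotted for each of 11 cell classes (horizontal axis), with 1 point per library and a bar at the mean of 4 libraries. Migratory DC-like cells sit between 908 and 1193 CPM, above all other classes.

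The order below the dendritic classes ran from monocyte-like (462 ± 50.8 CPM) through alpha-beta T-like, NK and ILC1-like, ILC2-like, macrophage-like (365 ± 40.8 CPM) and gamma-delta T-like to B-like (302 ± 45.2 CPM) and epithelial-like cells (223 ± 49.9 CPM). From monocyte-like cells downward each neighbour in this order overlapped the next. The sum weights the genes with more counts. The epithelial-like class joined unlike clusters, at 160.2, 757 and 947 CPM, so its mean stands for none of them. Its low rank also depends on the scaling by total counts. edgeR's test of this class against the mean of the others, with TMM scaling, called 14 of the 19 genes higher and 1 lower. Their median log2 was 0.56, and 38.6% of all genes were called higher. Among classes with fewer cells that were not tested, fibroblast-like cells summed to 888 to 1129.6 CPM, a range that overlapped migratory DC-like cells, and plasmacytoid DC-like cells to 608 to 1065 CPM.

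Single genes were compared by edgeR's quasi-likelihood test of a class against the mean of the other 10 classes, with library as a block. Clusters were built without the 32 genes and without the pathway genes listed further on. In migratory DC-like cells 20 of the 32 genes rose and 5 fell (median log2 1.09, against -0.12 over all 12567 genes tested). Of all genes, 29% were called higher and 29.8% lower. By role, 6 of 8 mevalonate arm genes, 9 of 11 sterol arm genes, 3 of 4 control genes, 0 of 3 fatty acid building genes and 2 of 6 desaturation and elongation genes were called higher. The count of 20 was the same when each library was left out in turn.

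Idi1, which isomerises the basic isoprenoid unit, had 222, 255, 229 and 223 CPM in migratory DC-like cells (log2 3.10, SE 0.09, edgeR adjusted p = 4.49e-31). Its next class, cDC2-like cells, had 59.8, 69.7, 67.02 and 71.8 CPM. All libraries of the first were more than 3 times those of the second. Pmvk and Mvd, which phosphorylate and decarboxylate mevalonate intermediates, followed. Pmvk had 136, 139, 119 and 129 CPM (log2 2.57, SE 0.09, edgeR adjusted p = 2.16e-29), against 61.6, 71.3, 60.9 and 72.6 CPM in cDC1-like cells. Mvd had 36.4, 48.1, 52.2 and 51.1 CPM (log2 2.58, SE 0.11, edgeR adjusted p = 4.08e-25), against 12.4, 19.02, 16.1 and 17.95 CPM in cDC2-like cells. Neither gene's range overlapped that of its second class.

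Hmgcs1, the synthase that makes HMG-CoA, had 89.4, 108, 156 and 149 CPM (log2 2.00, SE 0.10, edgeR adjusted p = 5.88e-23), against 36.5, 58.7, 67.2 and 78.8 CPM in cDC1-like cells. Cyp51, which demethylates lanosterol, had 106, 110.4, 144 and 172 CPM (log2 1.84, SE 0.09, edgeR adjusted p = 1.98e-22), against 60.8, 76.8, 100.4 and 86.5 CPM in cDC1-like cells. Both stood above their second class in all libraries, and within the migratory class both were higher in each Csf2-/- library than in each Csf2+/- library. Fdft1, squalene synthase, had 31.05, 43.6, 55.1 and 44.7 CPM (log2 2.01, SE 0.14, edgeR adjusted p = 8.99e-18), against 15.2, 20.6, 21.6 and 23.5 CPM in monocyte-like cells. Its libraries did not overlap either.

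Fdps, farnesyl diphosphate synthase, had 81.1, 97.3, 111 and 119 CPM (log2 1.85, SE 0.10, edgeR adjusted p = 5.88e-22) and overlapped its highest class, cDC1-like cells, at 100.5, 86.5, 124 and 129 CPM. Srebf2 had 137, 147, 135 and 132 CPM (log2 1.18, SE 0.06, edgeR adjusted p = 4.97e-22), next to 142, 146, 143 and 155 CPM in cDC1-like cells. Both genes were thus shared highs of migratory DC-like and cDC1-like cells. Msmo1, a sterol methyl oxidase, had 47.2, 46.1, 54.2 and 66.3 CPM (log2 1.48, SE 0.11, edgeR adjusted p = 3.22e-16) and overlapped monocyte-like cells at 43.5, 60.3, 62.5 and 55.01 CPM. Sqle, squalene epoxidase, had 19.9, 26.8, 32.9 and 46.3 CPM (log2 1.71, SE 0.17, edgeR adjusted p = 1.16e-12) and overlapped cDC2-like cells at 20.2, 31.2, 24.2 and 28.4 CPM. For these 4 genes the migratory class was not separated from its neighbour in the order.

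Hsd17b7, a sterol ketoreductase, had 9.93, 17.7, 11.6 and 19.96 CPM (log2 1.41, SE 0.19, edgeR adjusted p = 6.24e-09), and its male libraries were above its female ones. Its second class, alpha-beta T-like cells, had 9.63, 10.1, 9.94 and 8.81 CPM and overlapped it. Mvk, mevalonate kinase, had 19.04, 24.3, 18.4 and 24.8 CPM (log2 1.11, SE 0.16, edgeR adjusted p = 1.08e-07). Its highest classes were gamma-delta T-like cells at 29.03, 32.4, 18.9 and 17.1 CPM and ILC2-like cells at 22.4, 25.1, 21.3 and 20.1 CPM, which overlapped. The remaining genes of both arms that rose in migratory DC-like cells were Nsdhl, Sc5d, Tm7sf2 and Lss, at log2 0.74 to 1.64. Nsdhl had 11.2, 13.7, 13.5 and 19.96 CPM and overlapped cDC1-like cells at 9.81, 12.7, 16.4 and 17.8 CPM. Lss, lanosterol synthase, and Tm7sf2, a sterol reductase, were scarce, at 2.48 to 7.98 and 3.31 to 6.77 CPM. Their second classes, ILC2-like cells for Lss (3.42, 3.83, 3.10 and 3.63 CPM) and B-like cells for Tm7sf2 (0.703, 5.84, 4.73 and 1.94 CPM), overlapped them.

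The 5 genes that fell in migratory DC-like cells were Ggps1, which makes the geranylgeranyl group for prenylation (log2 -0.79), Dhcr7, the last reductase of cholesterol synthesis (-0.71), Srebf1 (-1.08), Elovl6 (-1.37) and Elovl5 (-0.42). Fasn, Acaca and Acly, which make the fatty acid chain and its precursors, had log2 -0.26, -0.12 and -0.09 and did not pass. The 9 genes of fatty acid building, desaturation and elongation together summed to 173 to 268 CPM, the lowest mean of the 11 classes, although this range overlapped macrophage-like cells (200.3 to 241 CPM).

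Set against the other myeloid classes alone (cDC1-like, cDC2-like, macrophage-like and monocyte-like cells, a comparison added after seeing the data), 20 of the 32 genes were again higher in migratory DC-like cells and 3 were lower. The background of genes called higher was 29.7%. The median log2 difference of the 19 genes of both arms was 1.48, and that of all genes -0.05. Cell cycle genes, which mark division, were low in migratory DC-like cells, at 73.5 to 192 CPM for 14 genes against 1506 to 1643 CPM in cDC2-like cells. The median depth was 15274 UMIs per migratory DC-like cell, 19323 per cDC1-like, 15647 per cDC2-like and 10718 per macrophage-like cell. The part of depth in these levels was not tested.

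Genes around the pathway were read from lists chosen beside the 32. Counts of calls are read against the 29% of all genes higher and 29.8% lower in migratory DC-like cells. Of 10 sterol uptake and transport genes measured, 6 were higher and 1 lower, among them Npc2, which carries cholesterol in the lysosome (1242 to 1502 CPM, log2 2.40, edgeR adjusted p = 4.33e-43). Of 10 other sterol synthesis genes, 3 were higher and 5 lower. Erg28, a scaffold of the sterol enzymes, was among those that rose (log2 0.41, edgeR adjusted p = 0.00103). Of 9 LXR and efflux genes 2 rose and 4 fell, with Abcg1 higher (log2 1.83, edgeR adjusted p = 7.11e-17) and Abca1 lower (log2 -2.03, edgeR adjusted p = 1.88e-07). Of 9 other SREBP control genes 1 rose and 5 fell. Against the other myeloid classes alone the uptake and transport list was split, with 5 of 10 higher and 5 lower (median log2 -0.03), where 29.7% of all genes were higher and 29.7% lower.

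**Figure D2:**
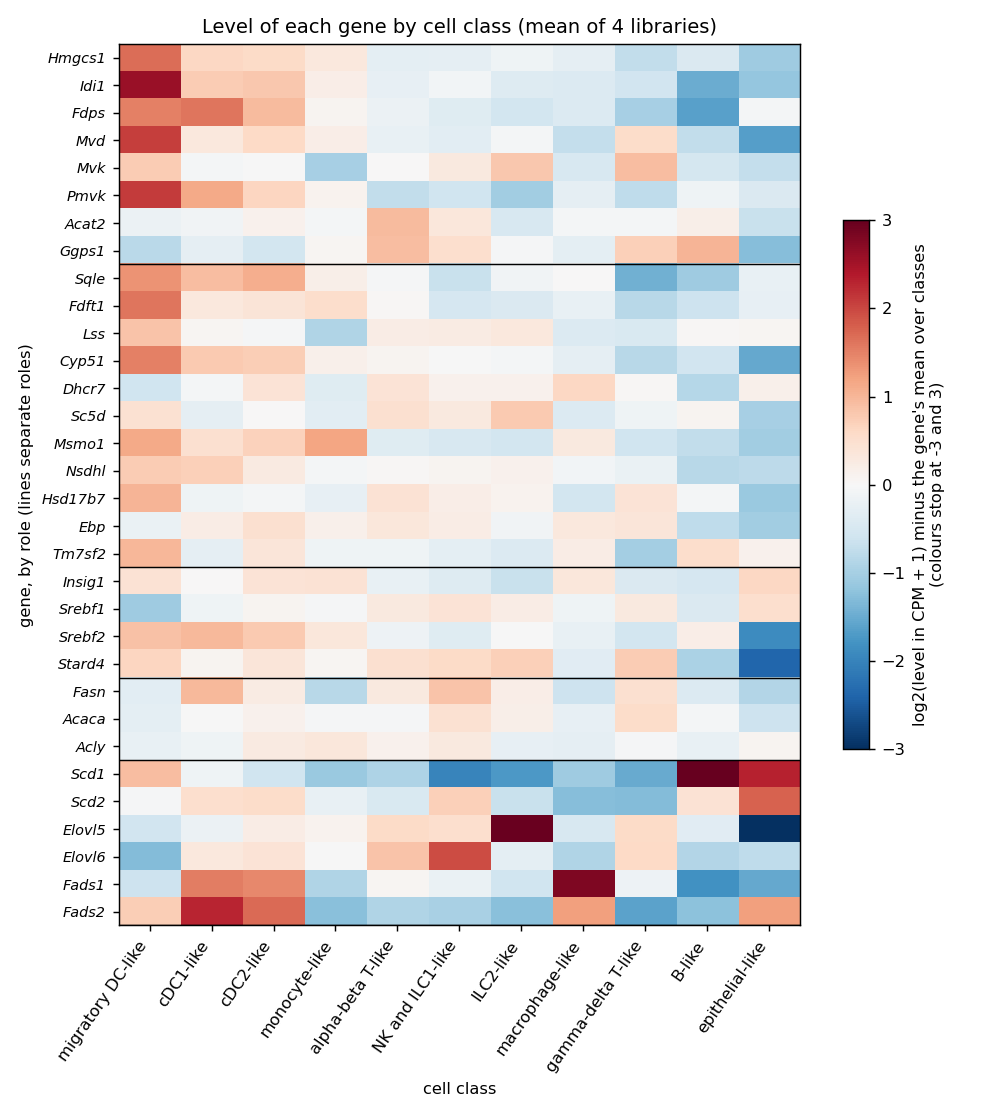
Each row is 1 of the 32 genes, ordered by role, and each column 1 of 11 cell classes. Colour gives log2(CPM + 1) of the mean over 4 libraries minus the gene's mean over classes. Red prevails in the migratory DC-like column of the first 2 roles, and dark red cells mark Elovl5 in ILC2-like, Scd1 in B-like and Fads1 in macrophage-like cells.

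The other dendritic classes shared part of this pattern. In cDC2-like cells 22 of the 32 genes rose and 2 fell, where 34.5% of all genes were called higher. In cDC1-like cells 16 rose and 4 fell, where 30% of all genes were called higher. Cell cycle genes were high in both classes, with 1297 to 2011 CPM of cell cycle genes in cDC1-like cells. Fdps and Srebf2 led in cDC1-like cells (log2 1.76, SE 0.08, edgeR adjusted p = 1.51e-23 for Fdps). Ebp, a sterol isomerase, had its highest level in cDC2-like cells at 76.03, 77.1, 77.3 and 84.2 CPM, just above gamma-delta T-like cells at 72.1, 71.4, 71.2 and 75.3 CPM. Fads2, a desaturase of polyunsaturated fatty acids, was highest in cDC1-like cells at 9.81, 13.9, 15.9 and 15.3 CPM, overlapping cDC2-like cells at 8.29, 12.7, 5.16 and 8.80 CPM.

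Macrophage-like cells stood low in most of these genes: 24 of the 32 fell and 4 rose against the mean of the other classes. Of all genes, 32.7% were called lower and 38.4% higher, and the members' median was -0.54 on the log2 scale. All 8 mevalonate arm genes and all 3 fatty acid building genes fell, such as Mvd at 5.09, 4.92, 6.53 and 7.44 CPM (log2 -1.07, SE 0.10, edgeR adjusted p = 4.37e-14) and Fasn at 10.6, 13.1, 10.9 and 16.8 CPM (log2 -0.93, SE 0.09, edgeR adjusted p = 3.47e-13). Scd2, a desaturase that makes monounsaturated fatty acids, had 11.3, 16.9, 13.9 and 21.9 CPM (log2 -1.68, SE 0.08, edgeR adjusted p = 4.04e-24). These genes stood below the mean of the other classes, while several classes overlapped macrophage-like cells in the summed level.

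The clearest exception was Fads1, the other desaturase of polyunsaturated fatty acids. It had 37.9, 45.5, 39.1 and 47.6 CPM in macrophage-like cells (log2 3.29, SE 0.11, edgeR adjusted p = 3.56e-29), against 17.7, 16.5, 17.3 and 16.4 CPM in cDC1-like cells, the second class. All macrophage-like libraries lay above all libraries of the other tested classes. Fads2 rose too (log2 2.53, SE 0.23, edgeR adjusted p = 1.64e-13), as did Dhcr7 (log2 0.53). Dhcr7 was highest in this class at 9.96, 15.3, 10.7 and 14.9 CPM, overlapping cDC2-like cells at 8.53, 11.2, 9.69 and 14.4 CPM. The fourth was Ebp (log2 0.14).

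The lists for taking up sterol and for esters and oxysterols held more genes called higher in macrophage-like cells than the 38.4% of all genes, whereas the export list stood near that share. Of 10 uptake and transport genes 8 were higher and 1 lower, including the lipoprotein receptor Lrp1 (102 to 125 CPM, log2 4.07, edgeR adjusted p = 1.68e-31) and the lysosomal lipase Lipa (163 to 186 CPM, log2 2.34, edgeR adjusted p = 1.89e-36). Of 7 ester and oxysterol genes 5 were higher, among them Ch25h, which makes 25-hydroxycholesterol (34.4 to 70.5 CPM, log2 6.28, edgeR adjusted p = 3.56e-41). Abca1, the cholesterol exporter, had 255 to 335 CPM (log2 4.43, edgeR adjusted p = 4.58e-42). Apoe, which accepts exported sterol and was also among the marker genes that named the class, had 13169 to 17818 CPM. In the LXR and efflux list as a whole 4 of 9 rose (44.4%) and 2 fell, with a median log2 of 0.06.

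B-like cells were low as well, with 22 of the 32 genes lower and 2 higher, where 28.4% of all genes were called lower. The genes that rose were Ggps1 and Scd1. Scd1, the stearoyl-CoA desaturase best known from liver and fat, had 263, 309, 274 and 331 CPM in B-like cells (log2 6.82, SE 0.13, edgeR adjusted p = 4.18e-39). Epithelial-like cells, the second class, had 24.1, 23.8, 22.9 and 27.3 CPM, and no other tested class reached these levels. Its paralog Scd2 was highest in epithelial-like cells at 92.2, 119.6, 136 and 204 CPM and second in NK and ILC1-like cells at 53.6, 74.8, 58.3 and 80.2 CPM, without overlap. Ggps1 had 57.7, 54.9, 76.8 and 69.7 CPM in B-like and 51.4, 58.6, 67.2 and 66.1 CPM in alpha-beta T-like cells, which overlapped.

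Elovl5, which elongates polyunsaturated fatty acids, was concentrated in ILC2-like cells, the type 2 innate lymphoid cells that make GM-CSF here. The libraries held 808, 781, 594 and 554 CPM (mean 684 ± 129, SD, n = 4; log2 3.37, SE 0.05, edgeR adjusted p = 1.57e-45). Gamma-delta T-like cells came second at 148, 165, 105 and 101 CPM, 5.27 times lower in the mean, and epithelial-like cells last at 6.92 to 8.88 CPM. Both genotypes of ILC2-like cells exceeded every library of the other tested classes. The 10 ILC2 marker genes summed to 7336 to 8148 CPM in Csf2+/- and 6895 to 7289 CPM in Csf2-/- ILC2-like cells. In macrophage-like cells, with Elovl5 at 52.7 to 72.2 CPM, they summed to 80.2 to 108 and 84.9 to 170.2 CPM.

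**Figure D3:**
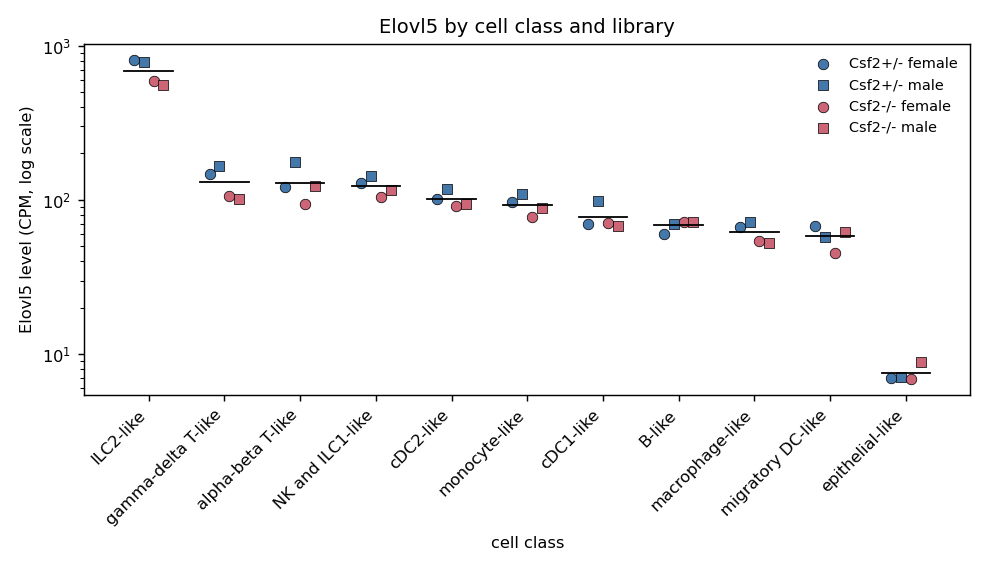
Elovl5 in CPM on a log axis is plotted for the 11 cell classes, with 1 point per library and a bar at the mean of 4. ILC2-like cells lie at 554 to 808 CPM, above all other classes, and the Csf2-/- points lie below the Csf2+/- points in 6 classes without overlap.

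Its relative Elovl6, which elongates saturated chains, was highest in NK and ILC1-like cells at 54.6, 59.6, 55.5 and 61.6 CPM (log2 1.99, SE 0.09, edgeR adjusted p = 4.58e-21), with alpha-beta T-like cells second at 28.1, 39.1, 12.8 and 26.4 CPM. Sc5d, a sterol desaturase, led in ILC2-like cells at 39.2, 43.1, 39.6 and 41.9 CPM, above alpha-beta T-like cells at 28.1, 35.7, 33.1 and 36.7 CPM. Acat2, the cytosolic thiolase at the start of the mevalonate arm, led in alpha-beta T-like cells at 15.2, 11.5, 12.8 and 13.95 CPM, above NK and ILC1-like cells at 7.24, 9.04, 8.28 and 9.15 CPM. In these 3 genes the first and second class did not overlap.

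For the remaining genes the first and second class overlapped. Fasn, fatty acid synthase, had 30.2, 46.4, 34.98 and 51.6 CPM in cDC1-like and 32.5, 42.2, 33.6 and 43.3 CPM in NK and ILC1-like cells. Acaca, acetyl-CoA carboxylase, had 43.03, 51.3, 43.1 and 46.9 CPM in gamma-delta T-like and 35.1, 49.7, 38.98 and 51.1 CPM in NK and ILC1-like cells. Acly, which supplies acetyl-CoA, ran from 64.9, 77.9, 64.9 and 81.97 CPM in monocyte-like and 68.5, 75.8, 64.9 and 74.1 CPM in NK and ILC1-like cells down to 43.02 to 52.1 CPM in macrophage-like cells. The sterol carrier Stard4 had 42.00, 41.3, 33.4 and 29.4 CPM in gamma-delta T-like and 32.5, 35.7, 36.8 and 35.7 CPM in ILC2-like cells. Insig1 had 53.3, 78.6, 75.8 and 91.1 CPM in epithelial-like and 53.9, 72.7, 66.4 and 69.99 CPM in monocyte-like cells. Srebf1 had 15.2, 22.1, 34.2 and 31.6 CPM in epithelial-like and 21.5, 24.1, 23.6 and 26.6 CPM in NK and ILC1-like cells. Over all 32 genes, the highest class was the migratory DC-like class in 11, all of them in the mevalonate or sterol arm. In 14 genes the highest class did not overlap the second. The share of all genes with either trait was not computed, so these counts only describe the list.

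Across the means of the 11 classes (log2(CPM + 1), shared libraries), the mevalonate and sterol arm genes varied together more than genes in general, as a description. The median Pearson r over 171 pairs within the 2 arms was 0.37, against 0.21 over all pairs of 12567 genes, 0.06 over 36 pairs of fatty acid genes and 0.04 over 171 pairs between the arms and the fatty acid genes. Idi1, Cyp51 and Hmgcs1 had the highest median r with the other arm genes (0.70, 0.69 and 0.67), and Ggps1, Dhcr7 and Acat2 the lowest (-0.21, -0.15 and 0.03). Srebf2 correlated with Cyp51 and Hmgcs1 across classes (0.89 and 0.84), whereas Srebf1 ran opposite to Srebf2 (-0.66).

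Dividing cells need new membrane, and the NK and ILC1-like class held enough of them for a comparison. Its 2 dividing clusters had 1489 cells and the others 8826. Both dividing clusters were led by Klra4 and Klra8, whereas the others also held cluster 3, of 2386 cells, led by Dscam, Gzmc and Ncr1. The part of this mix in the comparison was not tested. Of 31 genes that entered the fit (Scd1 was too scarce), 24 rose in dividing cells and 1 fell, where 30.6% of all genes were called higher. The members' median change was 0.35 on the log2 scale and that of all genes -0.03. By role, 5 of 8 mevalonate arm, 8 of 11 sterol arm, 4 of 4 control, 2 of 3 fatty acid building and 5 of 5 measured desaturation and elongation genes rose.

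In the mevalonate arm Idi1 went from 19.9, 27.3, 26.6 and 31.6 CPM in other cells to 48.9, 63.2, 63.2 and 68.8 CPM in dividing cells (log2 1.22, SE 0.06, edgeR adjusted p = 1.11e-14). Fdps went from 15.03, 20.3, 20.7 and 23.3 to 36.9, 51.1, 48.6 and 51.7 CPM (log2 1.25, SE 0.06, edgeR adjusted p = 5.01e-14). Both more than doubled in every library. Pmvk went from 14.3, 17.1, 15.9 and 16.5 to 27.3, 29.6, 27.5 and 30.1 CPM (log2 0.84, SE 0.07, edgeR adjusted p = 6.55e-10). Hmgcs1 went from 22.9, 27.3, 27.1 and 27.7 to 36.9, 48.8, 43.1 and 58.9 CPM (log2 0.81, SE 0.07, edgeR adjusted p = 1.52e-09). Acat2 went from 6.01, 6.98, 7.39 and 6.33 to 11.6, 13.6, 11.6 and 15.2 CPM (log2 0.94, SE 0.11, edgeR adjusted p = 2.07e-07). In all 3 the dividing cells were above the others in each of the 4 libraries. Ggps1 was the gene that fell, from 49.9, 45.4, 48.7 and 51.95 to 35.1, 36.1, 35.5 and 34.7 CPM (log2 -0.47, SE 0.06, edgeR adjusted p = 3.54e-07). Mvd, which stood high in migratory DC-like cells, had log2 0.03 and did not pass.

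In the sterol arm Sqle rose from 3.40, 4.82, 5.66 and 6.33 to 8.19, 15.2, 12.2 and 13.7 CPM (log2 1.30, SE 0.12, edgeR adjusted p = 5.38e-09). Cyp51 rose from 33.6, 42.4, 39.4 and 39.4 to 48.4, 65.3, 68.9 and 76.6 CPM (log2 0.72, SE 0.06, edgeR adjusted p = 1.35e-08). Ebp rose from 55.9, 59.2, 60.7 and 62.4 to 81.1, 79.6, 88.5 and 84.2 CPM (log2 0.48, SE 0.05, edgeR adjusted p = 6.01e-09). The states did not overlap in Cyp51 and Ebp over the 4 libraries, nor in Sqle. Insig1 rose from 26.5, 36.5, 32.6 and 34.4 to 34.4, 47.2, 52.1 and 56.2 CPM (log2 0.52, SE 0.07, edgeR adjusted p = 7.15e-07), and its lowest dividing value fell within the range of the other cells. Among fatty acid genes, Fads1 had the largest change of those above 5 CPM, from 1.85, 2.25, 2.10 and 2.77 to 9.48, 10.4, 9.72 and 11.9 CPM (log2 2.22, SE 0.14, edgeR adjusted p = 5.94e-12). Elovl5 rose less, from 121, 131, 95.8 and 104 to 154, 167, 136 and 141 CPM (log2 0.40, SE 0.04, edgeR adjusted p = 1.54e-08). The other 13 genes that rose had changes of 0.17 (Acly) to 2.64 (Fads2, at 1.32 CPM in dividing cells).

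**Figure D4:**
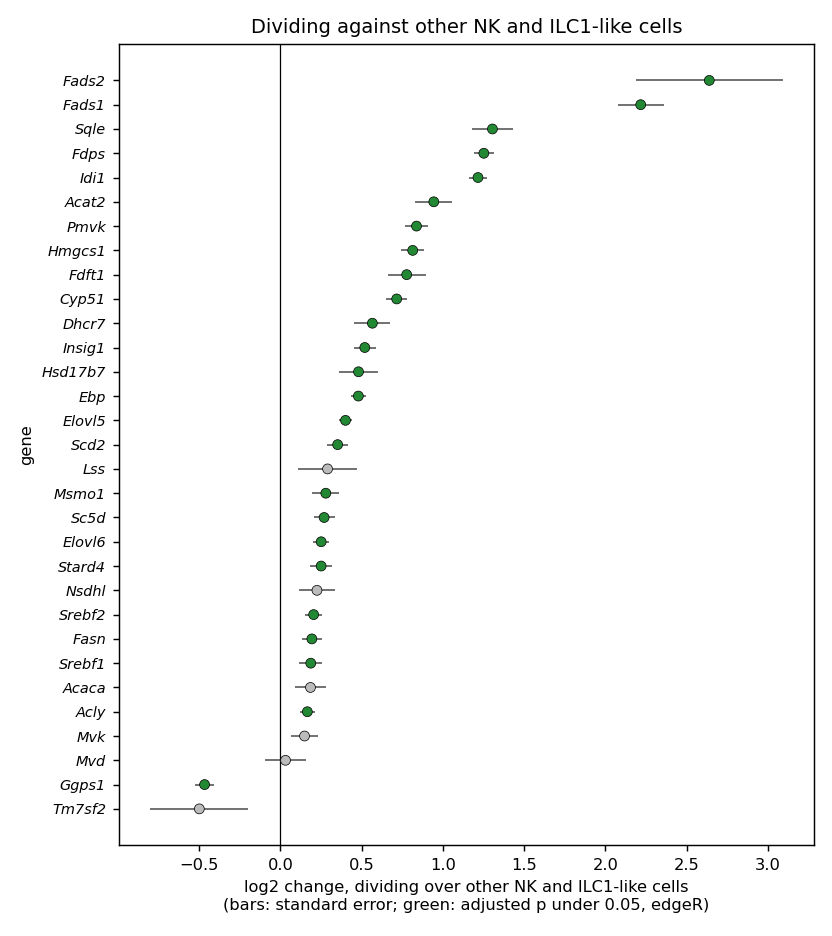
For 31 genes, the log2 change of dividing over other NK and ILC1-like cells is plotted on the horizontal axis with its standard error over 4 libraries. Green points passed the test, 24 of them above 0 and 1 below. The points run from -0.50 (Tm7sf2) and -0.47 (Ggps1) to 2.64 (Fads2).

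Of 10 other sterol synthesis genes, 8 rose and 1 fell in dividing NK and ILC1-like cells, including Erg28 (log2 0.82, SE 0.05, edgeR adjusted p = 1.27e-12). Of 7 LXR and efflux genes 0 rose and 4 fell, where 32.4% of all genes were called lower, with Mylip, a ubiquitin ligase, at log2 -0.86, SE 0.05, edgeR adjusted p = 4.04e-12. All 14 cell cycle genes rose, by which the clusters were picked. Dividing cells were deeper, with a median of 20058 UMIs against 9473, and the part of depth was not tested.

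The same comparison in macrophage-like cells, added after seeing the data, had 1 dividing cluster of 327 cells against 5010. There 8 of 31 genes rose and 0 fell, where 18.6% of all genes were called higher (median log2 0.22 for the members and -0.01 for all genes). Fads2 rose most, from 3.99, 4.06, 4.50 and 6.31 to 15.1, 26.6, 15.8 and 19.7 CPM (log2 1.94, SE 0.22, edgeR adjusted p = 1.20e-07). Cyp51 went from 27.6, 33.9, 38.6 and 45.8 to 39.1, 67.7, 45.1 and 66.5 CPM (log2 0.52, SE 0.12, edgeR adjusted p = 0.00121). Ebp went from 65.4, 62.7, 70.4 and 74.1 to 88.9, 86.8, 100.4 and 88.2 CPM (log2 0.35, SE 0.09, edgeR adjusted p = 0.00262). The dividing value was the higher one within each of the 4 libraries for these 3 genes. Sqle, Fdps, Elovl6, Fads1 and Acat2 were the others that rose, with log2 changes of 0.28 to 0.66. The dividing cluster, numbered 28, was led by Il1a, Fat3 and Creb5, as was cluster 6, whereas the other cells also held cluster 5, led by Pf4, Folr2 and Ccl12. Against cluster 6 alone, a comparison added after seeing the data, 2 of 29 genes rose and 1 fell, where 16.7% of all genes were called higher (median log2 0.02 for the members). Fads2 (log2 1.32, SE 0.21, edgeR adjusted p = 1.45e-05) and Ebp (log2 0.25, SE 0.09, edgeR adjusted p = 0.0243) rose, and Elovl5 fell (log2 -0.59, SE 0.09, edgeR adjusted p = 1.43e-05). Cyp51 in cluster 6 had 33.4, 42.9, 45.6 and 67.1 CPM, and the dividing cells were above it in both Csf2+/- libraries only (log2 0.05, SE 0.12, edgeR adjusted p = 0.765). The calls of Cyp51, Sqle, Fdps, Elovl6, Fads1 and Acat2 were thus lost within this kind of macrophage-like cell. Their changes were unlike in size. Elovl6 still had log2 0.66 (edgeR adjusted p = 0.0506). Acat2 (log2 0.46), Sqle (0.39) and Fads1 (0.14) were higher in the dividing cells of each of the 4 libraries, and Fdps had log2 0.09. The difference between the 2 classes was not tested.

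The genotypes were compared within each class, which asks how the synthesis genes stand when GM-CSF is missing. Acly in cDC2-like cells was the only call among all pairs of gene and class. It fell from 79.6 and 79.9 CPM in the Csf2+/- libraries to 58.1 and 61.3 CPM in the Csf2-/- libraries (79.7 ± 0.182 and 59.7 ± 2.28, SD over the 2 libraries; log2 -0.42, SE 0.09, edgeR adjusted p = 0.0107). DESeq2 did not call it (adjusted p = 0.0692). Of the 11068 genes tested in cDC2-like cells 5.02% were called, and 1 of 32 does not exceed that share. In the other 10 classes the change of Acly ran from -0.15 to 0.14.

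No gene of the list was called in the other classes. The share of all genes called was 0.00793% in macrophage-like, 0.0518% in ILC2-like, 0.00763% in NK and ILC1-like, 0.13% in alpha-beta T-like, 0.0424% in gamma-delta T-like and 0.0823% in B-like cells. It was 0.996% in cDC1-like, 0.472% in migratory DC-like, 1.58% in monocyte-like and 0% in epithelial-like cells. At an unadjusted p under 0.05 the list had 9 of 30 measured genes in cDC1-like cells, where 11.9% of all genes did. It had 7 of 30 in ILC2-like (9.55%), 6 of 27 in migratory DC-like (9.71%), 6 of 31 in epithelial-like (7.63%) and 5 of 32 in macrophage-like (10.1%) cells, with the share of all genes in parentheses. It had 3 of 32 in cDC2-like (18%), 3 of 28 in gamma-delta T-like (6.62%), 2 of 17 in B-like (6.76%), 2 of 31 in NK and ILC1-like (7.39%), 2 of 27 in alpha-beta T-like (8.64%) and 2 of 28 in monocyte-like (13.5%) cells. In cDC2-like, NK and ILC1-like, alpha-beta T-like and monocyte-like cells the members' share was below that of all genes. DESeq2 called 1 gene of the list over the 11 classes, Elovl5 in ILC2-like cells, and limma-voom called 2, that one and Acly in cDC2-like cells. Of all genes, DESeq2 called 77 in ILC2-like cells, and limma-voom 10 there and 547 in cDC2-like cells. With sex as a block edgeR called 6 of the list, Acly and Scd2 in cDC2-like cells and Elovl5 in 4 classes. The block also called more of all genes in these classes. It called 194 in macrophage-like, 130 in ILC2-like, 80 in NK and ILC1-like, 43 in gamma-delta T-like and 593 in cDC2-like cells. Without it the counts were 1, 6, 1, 4 and 556. Over the 11 classes the count of calls was 4 or 10 when the female or the male Csf2+/- library was left out, and 11 or 3 when the female or the male Csf2-/- library was. The share of all genes called with a library left out is not given here. With 2 libraries against 2, p-values rest on the spread between pools, which includes the difference between the sexes.

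Elovl5 had the lowest p of the list in macrophage-like and in ILC2-like cells. In ILC2-like cells it stood at 808 and 781 CPM in the Csf2+/- and 594 and 554 CPM in the Csf2-/- libraries (log2 -0.52, SE 0.08, edgeR adjusted p = 0.0548; DESeq2 adjusted p = 1.03e-05, limma-voom 0.0398). In macrophage-like cells the values were 66.8 and 72.2 CPM against 54.2 and 52.7 CPM (log2 -0.41, SE 0.09, edgeR adjusted p = 0.245). Neither passed edgeR's threshold without a block, and in both classes the Csf2-/- libraries lay below the Csf2+/- libraries. Gamma-delta T-like cells had 148 and 165 against 105 and 101 CPM (log2 -0.58, SE 0.11, edgeR adjusted p = 0.0879), and NK and ILC1-like cells 128 and 142 against 104 and 116 CPM (log2 -0.32, SE 0.07, edgeR adjusted p = 0.328). With sex as a block Elovl5 passed in ILC2-like (adjusted p = 0.00408), macrophage-like (0.0353), gamma-delta T-like (0.00267) and NK and ILC1-like cells (0.0339). Without the Csf2-/- female library it passed in both ILC2-like (adjusted p = 0.0195) and macrophage-like cells (0.00154), and without the Csf2+/- female library in cDC1-like (0.0384) and monocyte-like cells (0.0305). Over the 11 classes Elovl5 had a lower value in Csf2-/- cells in 9, with no overlap in 6, and log2 changes of -0.58 to 0.17. Of 6193 genes measured in all 11 classes, 16.4% were lower in 9 or more, as was 1 of the 16 members so measured, Elovl5. The classes of a library are not independent of each other. Among single clusters tested after seeing the data, macrophage cluster 6 passed for Elovl5 (91.98 and 102 against 70.01 and 71.7 CPM, log2 -0.49, SE 0.09, edgeR adjusted p = 0.00940). Cluster 5, the larger, had 34.9 and 42.8 against 30.2 and 37.5 CPM (log2 -0.21, edgeR adjusted p = 0.559). The unnamed clusters 13, 8 and 16 did not pass (log2 -0.16, -0.36 and -0.51). Cluster 6 held 43.8%, 37.7%, 43.2% and 29.1% of the macrophage-like cells in the 4 libraries. Cluster 5 held 37.2%, 43.2%, 36.1% and 49.9%. The part of these shares in the class values was not tested.

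The ILC2-like cells fell into clusters of unlike Elovl5 level, whose shares differed between genotypes. Cluster 4, the low one, held 34% and 28.9% of the ILC2-like cells in the Csf2+/- and 43.1% and 42.95% in the Csf2-/- libraries, and cluster 2 held 43.9% and 54.4% against 33.2% and 37.7%. Within cluster 2 Elovl5 stood at 1006 and 912 against 763 and 659 CPM (log2 -0.48, SE 0.10, edgeR adjusted p = 0.107). Cluster 10 had 904 and 869 against 684 and 740.5 CPM (log2 -0.35, SE 0.10, edgeR adjusted p = 0.771) and cluster 4 408 and 397 against 358 and 321 CPM (log2 -0.26, SE 0.10, edgeR adjusted p = 0.621). None of the 3 passed, and in each the Csf2-/- libraries lay below the Csf2+/- libraries. The fitted changes were smaller than in the class as a whole (log2 -0.52), but for cluster 2 the gap lay within its SE. The part of the cluster shares in the class value was not tested.

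In macrophage-like cells, 22 of the 32 genes had a higher and 10 a lower value in Csf2-/- libraries, with a median of 0.13 on the log2 scale while that of all 12608 genes lay within 0.01 of 0. After Elovl5 the lowest p-values belonged to synthesis genes with higher values. Cyp51 had 28.6 and 37.1 CPM against 39.1 and 48.5 CPM (log2 0.38, SE 0.13, edgeR adjusted p = 0.404). Mvd had 5.09 and 4.92 against 6.53 and 7.44 CPM (log2 0.45, SE 0.18, edgeR adjusted p = 0.448). Idi1 had 20.98 and 27.9 against 28.1 and 35.7 CPM (log2 0.35, SE 0.14, edgeR adjusted p = 0.476). The genotypes did not overlap in these 3 genes, but for Idi1 the gap between 27.9 and 28.1 CPM was smaller than that between the 2 Csf2+/- libraries. Hmgcs1 had 22.6 and 32.4 against 36.5 and 35.8 CPM (log2 0.37, SE 0.15, edgeR adjusted p = 0.485). Sqle had 6.99 and 11.7 against 11.8 and 17.1 CPM (log2 0.59, SE 0.25, edgeR adjusted p = 0.504). Both Csf2-/- libraries were higher than both Csf2+/- libraries in 11 of the 32 genes and lower in 1, where 22.9% and 16.5% of all genes were so. Without the Csf2-/- female library 3 of these genes passed, Sqle (adjusted p = 2.35e-04), Cyp51 (0.00740) and Idi1 (0.0121). The median was 0.08 without the Csf2+/- female library. Without the Csf2-/- male library the median was 0.04, and without the Csf2+/- male library 0.24.

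In ILC2-like cells 21 of 30 measured genes had a higher value in Csf2-/- libraries (median 0.09, against -0.01 over all genes). Msmo1 had 13.7 and 12.6 CPM in Csf2+/- and 18.00 and 19.5 CPM in Csf2-/- libraries (log2 0.46, SE 0.12, edgeR adjusted p = 0.230). Fdft1 had 8.16 and 8.15 against 11.97 and 11.7 CPM (log2 0.48, SE 0.14, edgeR adjusted p = 0.303). Idi1 had 22.2 and 27.6 against 32.3 and 33.5 CPM (log2 0.35, SE 0.11, edgeR adjusted p = 0.359). None of these passed, although the genotypes did not overlap. Scd2 had 17.3 and 23.6 against 25.3 and 32.8 CPM (log2 0.46, SE 0.16, edgeR adjusted p = 0.427), and Cyp51 40.6 and 37.5 against 55.03 and 44.7 CPM (log2 0.29, SE 0.12, edgeR adjusted p = 0.485). Both Csf2-/- libraries were higher in 15 of the 30 genes and lower in 2, where 27.6% and 13.6% of all genes were so. Cell cycle genes moved with this: the 14 summed to 186 to 309 CPM in Csf2+/- and 410.2 to 418 CPM in Csf2-/- ILC2-like cells, each of the 14 was measured with a higher value in Csf2-/- cells (median log2 0.73), and their part in the result was not tested. Without the Csf2-/- male library the members' median was 0.04, and without the Csf2+/- female library 0.04.

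**Figure D5:**
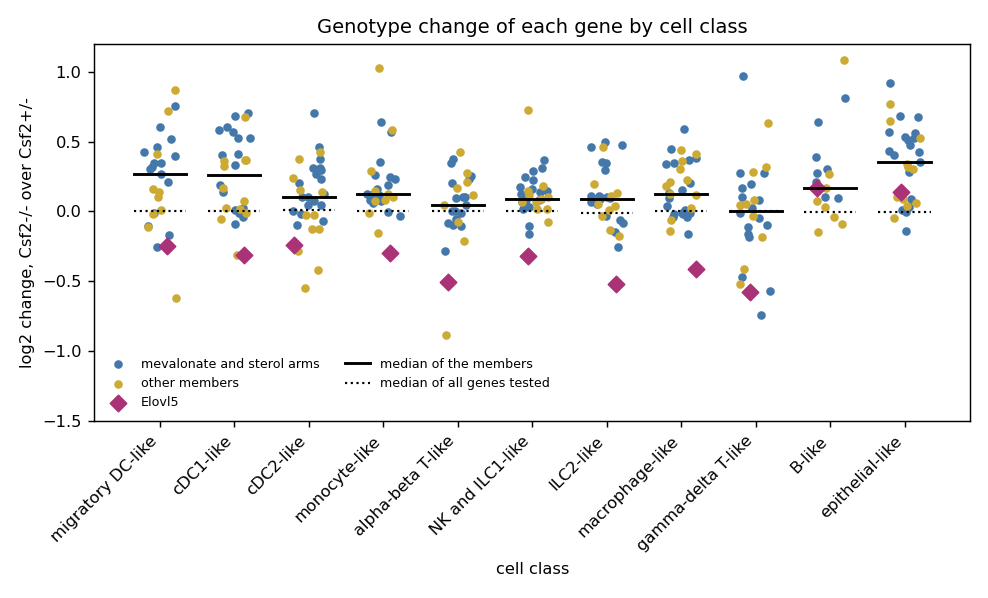
Each point is 1 gene in 1 class, with its fitted log2 change of Csf2-/- over Csf2+/- libraries on the vertical axis and the 11 classes on the horizontal axis. Solid bars, the median of the measured members, lie between 0.01 (gamma-delta T-like) and 0.35 (epithelial-like), dotted bars mark the median of all genes, and Elovl5 (diamonds) lies below 0 in 9 classes.

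The 19 genes of both arms summed to a higher level in the Csf2-/- library of each sex in all 11 classes. The median ratio over classes was 1.16 between the female libraries and 1.11 between the male ones. In migratory DC-like cells the sums were 908 and 1054 CPM in Csf2+/- and 1129 and 1193 CPM in Csf2-/- libraries. In macrophage-like cells they were 315 and 362 CPM against 367 and 415 CPM. Both Csf2-/- libraries were above both Csf2+/- libraries in 6 of the 11 classes. An exact permutation test of 2 against 2 libraries cannot go below a two-sided p of 0.333, and the classes share their 4 libraries, so 11 of 11 is not 11 independent observations. The summed level of the fatty acid genes did not share this, with the Csf2-/- library higher in 3 classes between female and 4 between male libraries. That sum weights Elovl5, which made up 684 of 832 CPM in the mean of ILC2-like cells. Gene by gene, the median change of the measured fatty acid genes was below 0 only in alpha-beta T-like (-0.15) and cDC2-like cells (-0.12). It reached 0.21 in macrophage-like and 0.23 in epithelial-like cells.

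The libraries also differed within a genotype. The male library had the higher sum of both arms in 9 of 11 classes in Csf2+/- and in 9 of 11 in Csf2-/- mice, and the fatty acid genes in 10 of 11 in either genotype. With 1 library of each sex per genotype, sex and library cannot be told apart. The Csf2+/- female library was the lowest of the 4 for the sum of both arms in 9 of 11 classes. In macrophage-like cells it was the lowest for 22 of 32 genes (68.8%), against 33.7% of all genes. In all 11 classes the mitochondrial share of UMIs was lower in both Csf2-/- libraries than in both Csf2+/- libraries, in macrophage-like cells at 2.36% and 2.42% against 2.59% and 2.99%, and the median depth over all cells was 10520.0 and 10112 UMIs in Csf2+/- and 8766 and 8818 UMIs in Csf2-/- libraries. Their part in these values was not tested.

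Of the 16 members measured in all 11 classes, 2, Cyp51 and Scd2, had a higher fitted value in Csf2-/- cells in each class. This was so for 2.97% of the 6193 genes measured in all of them. Cyp51 ran from 0.11 (alpha-beta T-like) to 0.81 (B-like). In migratory DC-like cells it had 106 and 110.4 against 144 and 172 CPM (log2 0.52, SE 0.14, edgeR adjusted p = 0.155). Scd2 ran from 0.09 (NK and ILC1-like) to 0.87 (migratory DC-like), with its lowest p in monocyte-like cells at 24.4 and 30.5 against 36.3 and 44.3 CPM (log2 0.58, SE 0.16, edgeR adjusted p = 0.0523). Without a block no class passed for either gene, and with sex as a block Scd2 passed in cDC2-like cells (adjusted p = 0.0235). These genes were picked out after their values were seen. Srebf2 had a lower value in 8 of 11 classes, with changes of -0.18 to 0.21.

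The change in macrophage-like cells was set against that in ILC2-like cells in 1 fit with an interaction term. Of the 32 genes 0 differed (2 at an unadjusted p under 0.05, Elovl6 and Sqle), where 0.0456% of 13156 genes were called. Sqle, at log2 0.59 in macrophage-like and 0.07 in ILC2-like cells, differed by 0.55 (SE 0.20, edgeR adjusted p = 0.556). For Elovl5 the difference was 0.12 (SE 0.10).

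Of the genes around the pathway, edgeR called 4 between genotypes over the 11 classes. These were 2 in cDC2-like, 1 in migratory DC-like and 1 in monocyte-like cells. DESeq2 called 6 and edgeR with sex as a block 10, in part in other classes. Of all genes, DESeq2 called 77 in ILC2-like, 59 in NK and ILC1-like, 320 in cDC2-like and 58 in monocyte-like cells. The block called 130 in ILC2-like, 80 in NK and ILC1-like, 30 in alpha-beta T-like, 194 in macrophage-like and 593 in cDC2-like cells. edgeR called 5.02%, 0.472% and 1.58% of all genes in cDC2-like, migratory DC-like and monocyte-like cells. Each list had 3 to 11 measured genes there. Over all lists together, the edgeR calls in cDC2-like and monocyte-like cells did not exceed the share of all genes. DESeq2's calls were Apoe in ILC2-like (adjusted p = 0.00180), NK and ILC1-like (1.34e-04) and cDC2-like cells, Dgat1 in ILC2-like, Ppargc1a in NK and ILC1-like and Pparg in monocyte-like cells. The block's calls outside cDC2-like cells were Hacd3 and Dgat2 in ILC2-like, Ppargc1a in NK and ILC1-like, Pparg in alpha-beta T-like and Lpin2 and Plin2 in macrophage-like cells. In cDC2-like cells Apoe rose from 335 and 292 to 716 and 631 CPM (log2 1.10, SE 0.10, edgeR adjusted p = 6.45e-05), 1 of the LXR and efflux list. The 12 macrophage marker genes, which include Apoe, summed to 1293 to 1370.3 CPM in Csf2+/- and 1783 to 1872 CPM in Csf2-/- cDC2-like cells, and the call was lost with doublets kept (log2 0.50, adjusted p = 0.313) or with pathway genes in the clustering (adjusted p = 0.0847). The same markers summed to 182 to 191 CPM in Csf2+/- and 257 to 302 CPM in Csf2-/- ILC2-like cells. In NK and ILC1-like cells they summed to 210 to 217 and 320 to 385 CPM. Their part in the Apoe calls was not tested. Soat1, which stores cholesterol as ester, rose from 66.4 and 66.3 to 82.6 and 95.3 CPM (log2 0.42, SE 0.09, edgeR adjusted p = 0.0111), but not at a coarser clustering (log2 0.15), with DESeq2 (adjusted p = 0.0743) or without the male library of either genotype (adjusted p = 0.0559 and 0.105). In migratory DC-like cells Cyp7b1, an oxysterol hydroxylase, rose from 1.24 and 0 to 14.5 and 14.4 CPM (edgeR adjusted p = 0.0158). The gene was scarce, and the call did not hold with sex as a block (adjusted p = 0.0539), with doublets kept (0.0780) or without either Csf2-/- library (adjusted p = 0.254 and 0.402), and DESeq2 gave no adjusted p. In monocyte-like cells Pparg, a lipid-sensing receptor on the fatty acid oxidation list, fell from 307 and 376 to 258 and 222 CPM (log2 -0.49, SE 0.11, edgeR adjusted p = 0.0244). It did not pass with a sex block (adjusted p = 0.117), with pathway genes in the clustering (0.263) or without the Csf2-/- male library (0.327).

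In macrophage-like cells no surrounding gene reached the threshold without a block, and 7 had an unadjusted p under 0.05, where 10.1% of all genes did. By list these were 2 of other sterol synthesis, 1 of SREBP control, 2 of uptake and transport and 2 of fatty acid activation and storage. They included Acat1, a thiolase (log2 0.22), Npc1, which moves cholesterol out of the lysosome (-0.30), Osbpl8 (-0.22), Lpin2 (-0.49) and Plin2, a lipid droplet coat (-0.40). Lpin2 had 143 and 141 CPM in Csf2+/- and 112 and 95.3 CPM in Csf2-/- libraries. The edgeR adjusted p-values of the 7 genes were 0.292 or more. With sex as a block Lpin2 (adjusted p = 0.0223) and Plin2 (0.0205) passed. No gene of the LXR and efflux list was among the 7.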

How the data were processed

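The submitters' processing notes name Cell Ranger 7.0.0 and build GRCm39. The authors' counts were deposited as whole UMI counts per gene and cell barcode. Of 39395 barcodes, 37644 had at least 500 UMIs, 300 genes and at most 10% mitochondrial UMIs. Scrublet's automatic thresholds marked from 0% to 9.82% of cells as doublets, so the highest scoring cells up to the expected share (a rate of 0.008 per 1000 cells) were removed, leaving 34805. Clusters (scanpy 1.11.5, 3000 variable genes, 40 components, 15 neighbours, Leiden resolution 1.5) were built without the 32 genes and the pathway genes. Class names are rebuilt here from marker lists, of which 3 symbols were not found, and 10 of 43 clusters (5035 cells) stayed unnamed. Among these, cluster 13, led by Retnla, Lyz1 and Lpl, held 298 and 360 cells in the Csf2+/- and 88 and 65 in the Csf2-/- libraries. It was therefore in no tested class. Other namings could give other values.

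UMIs were summed per library and class and tested with edgeR 4.0.16 (quasi-likelihood, TMM, filterByExpr, R 4.3.3), with Benjamini-Hochberg adjustment over all genes tested in a fit and a threshold of 0.05. DESeq2 1.42.0, limma-voom (limma 3.58.1), no count filter, a sex block, 1000 UMIs per cell, kept doublets, resolution 0.8, pathway genes in the clustering and leaving out each library were alternatives. Dividing clusters had over 3 times the median cell cycle level of their class. The scripts were tested on simulated data. Library values were printed for called genes (at most 12 a comparison), for the 6 genes of lowest p between genotypes in macrophage-like and ILC2-like cells, and for each gene's highest classes, and up to 4 called genes per pathway list. The 32 genes and all lists were chosen with earlier results of these data known. CPM intervals from counting were not computed: the spread between libraries includes counting error. Some genes of the surrounding lists are counted but not reported by name here.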

Additional observations from a re-analysis of the deposited data

How the results depend on the processing

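The number of genes called between genotypes over the 11 classes, 1 as reported, was 1 with DESeq2, at least 1000 UMIs per cell or pathway genes in the clustering, 2 with limma-voom, with doublets kept or at resolution 0.8, 6 with a replicate block by sex, 17 with no filter on low counts, and 3 to 11 with 1 library left out. A left-out library leaves 1 library in an arm, which is assumed to vary like the other genotype's pair. The median change of the 32 genes was 0.12 to 0.14 in macrophage-like cells under the other settings, and 0.036 to 0.24 with 1 library left out. In ILC2-like cells it was 0.08 to 0.10, and 0.042 to 0.12 with 1 library left out. The 24 genes higher in dividing NK and ILC1-like cells became 19 with no library block and 20 to 25 under the others, and the 20 higher in migratory DC-like cells stayed 20 in number under 8 settings chosen after seeing the data.

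Libraries of the same sex carry the same number, and the block is by sex. The male minus female differences of the 2 genotypes correlated across genes at Pearson r of -0.05 to 0.35 over the classes, and at 0.33 in macrophage-like cells. The block added Elovl5 in ILC2-like, NK and ILC1-like, gamma-delta T-like and macrophage-like cells and Scd2 in cDC2-like cells. In these 5 classes, in this order, it called 130, 80, 43, 194 and 593 of all genes, against 6, 1, 4, 1 and 556 without it. Counts of all genes with no count filter or with 1 library left out are not given here. Over 26 genotype results for named genes and their alternatives, 266 values kept their side of the threshold, 14 lost it, 22 gained it and 0 reversed. The cause was not tested. Depth limits the scarce genes: Lss and Tm7sf2 stayed under 10 CPM in every tested class.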

Other observations

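Cell cycle genes were called between genotypes by edgeR in 2 classes. In monocyte-like cells Stmn1, a microtubule regulator, rose from 10.1 and 14.1 CPM in the Csf2+/- to 29.7 and 23.3 CPM in the Csf2-/- libraries (log2 1.13, edgeR adjusted p = 0.00313). Pclaf, a replication factor, rose there from 2.81 and 3.05 to 8.41 and 8.56 CPM (log2 1.55, edgeR adjusted p = 0.0239). In cDC1-like cells Cenpf, a kinetochore gene, rose from 52.2 and 35.5 to 75.9 and 80.2 CPM (log2 0.80, edgeR adjusted p = 0.0242). With sex as a block Stmn1 (adjusted p = 0.0371) and Cenpf (0.0119) passed and Pclaf did not (0.0736). DESeq2 did not call Cenpf (adjusted p = 0.101) and gave no adjusted p for Stmn1 and Pclaf. Other fits also called cell cycle genes in ILC2-like and gamma-delta T-like cells. The median change of the measured synthesis genes was 0.12 in monocyte-like and 0.26 in cDC1-like cells, and a link between them was not tested.

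B-like cells stood low across neighbouring sterol lists too. Of 10 uptake and transport genes 9 fell against the mean of the other classes (median log2 -1.49), as did 9 of 10 other sterol synthesis genes (-0.55) and 11 of 14 cell cycle genes (-2.19), against -0.14 over all genes. The median depth was 4913 UMIs per B-like cell, and its part was not tested.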
